A study of Homo sapiens with 2 samples.

Results

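The RNAs described here are 8 transcripts known from the literature to bind IMP1, chosen by gene symbol: ACTB, MYC, IGF2, H19, CD44, BTRC, MAPT and SRF. All 8 were found among the 18781 genes of the deposited table. Each gene has a value in 2 libraries made from T47D, a luminal breast cancer line labelled as wild type (WT) and grown in serum-containing DMEM. In the RIP (RNA immunoprecipitation) assay a cell lysate was incubated with protein A beads carrying either an IMP1 antibody or normal IgG, and the RNA left on the washed beads was sequenced. There is 1 library for each antibody, so no difference has a replicate check and no test between the precipitates was possible. A library of the input RNA was not used here, so binding to the antibody and the level of an RNA in the lysate cannot be told apart.

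IMP1, also called ZBP1 or CRD-BP, is an oncofetal RNA-binding protein with RRM and KH domains. It was found as the factor that holds the zipcode of beta-actin mRNA and carries that mRNA to the leading edge of moving cells, as a protein that shields an instability element in the coding region of MYC mRNA, and as a binder of IGF2 leader mRNAs and of the H19 RNA. Through these RNAs it has been tied to cell motility, growth and tumour invasion.

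All values are FPKM, fragment counts corrected for transcript length and sequencing yield, so that levels of different genes can be compared per length. An exact zero was deposited as 1e-05 and read back as 0. The anti-IMP1 library listed 1202 genes at 0 and the IgG library 7270, and the FPKM values summed to 353885 and 1298363, respectively. The mitochondrial rRNAs MT-RNR1 and MT-RNR2 made up 37.7% and 52.5% of these sums. The depth of the libraries is unknown. The comparison was the log2 ratio of FPKM + 0.1, anti-IMP1 over IgG, which understates the change of low genes, and 2-fold was the limit for calling a gene higher or lower. Because the sums differ, each ratio was also computed after multiplying the anti-IMP1 values to reach the same sum, which moves genes far above the pseudocount by 1.88 on the log2 scale. Without the 50 highest genes of either library the same-sum shift was 0.57, and scaling to the median gene shifted by 0.79.

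On the deposited scale the classical targets did not move one way. H19 and MAPT were above 0 with anti-IMP1 and listed at 0 with IgG. ACTB, CD44, BTRC, SRF and IGF2 were at least 2-fold lower with anti-IMP1, and MYC was within 2-fold. Thus 2 of the 8 RNAs were at least 2-fold higher, beside 39.9% of all genes, and 5 were at least 2-fold lower, beside 29.9% of all genes. Both counts rest on the scale: after rescaling to the same sum, 3 were higher, beside 63.7% of all genes, and 1, IGF2, was lower, beside 13.0% of all genes. The median log2 ratio of the 8 RNAs was -1.35, and that of all genes was 0.40. The median of all genes depended on the low values: it was -0.72 over genes above 0 in both libraries and -0.78 over genes that reached 1 FPKM in each, where the 4 targets at that level had a median of -1.35. Of the 4 RNAs that reached 1 FPKM in each library, namely ACTB, MYC, CD44 and SRF, 3 were at least 2-fold lower, where 44.0% of the 6909 genes at that level were lower and 11.5% higher.

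**Figure D1:**
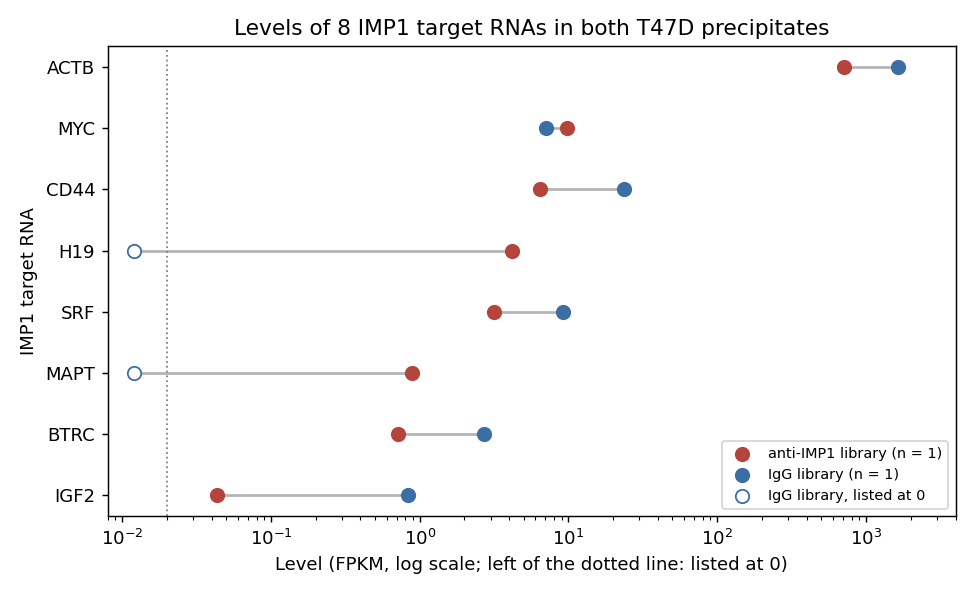
FPKM (log axis) of each of the 8 IMP1 target RNAs in the anti-IMP1 library (red) and the IgG library (blue), 1 library each; an open point left of the dotted line is a value listed at 0. H19 and MAPT have no IgG value above 0, the MYC points lie close together, and the other 5 RNAs have their red point to the left of the blue.

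The order of the levels differed between the precipitates. With anti-IMP1 it ran from ACTB at 716 FPKM through MYC, CD44, H19, SRF, MAPT and BTRC to IGF2 at 0.0432 FPKM. With IgG it ran from ACTB at 1634 FPKM through CD44, SRF, MYC and BTRC to IGF2 at 0.836 FPKM, with H19 and MAPT at 0. The spread of a level is not known from 1 library, so it cannot be said which neighbours in these orders differ beyond it.

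ACTB (ENSG00000075624, listed at hg19 chr7:5566782-5603415, a span shared with other genes) encodes beta-actin, whose mRNA is the founding target of IMP1. It had 715.5 FPKM with anti-IMP1 and 1634 FPKM with IgG, and ranked 32nd and 37th from the top. It was therefore among the most abundant RNAs on both kinds of bead. The log2 ratio was -1.19 on the deposited scale, with 25.0% of the 12 other genes of like level having a smaller ratio (a mean log2 value within 0.5). It was 0.68 after rescaling to the same sum, -0.40 after scaling to the median gene and -0.62 without the 50 highest genes. The gene with the nearest pair of values was the mitochondrial mRNA MT-ND6, with 951 FPKM and 1820 FPKM.

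A quotient of 2 genes inside a library does not depend on how that library is scaled. ACTB was 3.03 times GAPDH with anti-IMP1 and 14.0 times GAPDH with IgG. It was 1.81 times ACTG1, the gamma-actin mRNA, with anti-IMP1 and 6.47 times ACTG1 with IgG. ACTB thus made up a smaller multiple of either mRNA on the anti-IMP1 beads, under any scaling, but this depends on the mRNA it is set against. GAPDH and ACTG1 both had log2 ratios above 0. Of 14 reference genes, the 4 at least 2-fold lower, YWHAZ, HPRT1, TBP and B2M, had smaller ratios than ACTB, from -1.22 to -3.41. Against these, ACTB was a larger multiple with anti-IMP1, and against the other reference genes a smaller one. ACTB and ACTG1 are near-identical in their coding regions and have processed pseudogenes, and how shared reads were assigned is not given in the sources used here, so the split between the isoforms is uncertain.

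Of 16 genes listed for actin isoforms and actin assembly, 13 were in the table. Of these, 1 was at least 2-fold higher and 7 at least 2-fold lower, beside 39.9% and 29.9% of all genes. The median log2 ratio was -1.08 on the deposited scale and 0.79 after rescaling to the same sum. The lowest ratios among those reaching 1 FPKM in each library belonged to ACTA2, smooth muscle actin, at 2.36 FPKM with anti-IMP1 and 7.79 FPKM with IgG, and to the Arp2/3 subunit ARPC3 at 54.4 and 143 FPKM. The largest belonged to another Arp2/3 subunit, ARPC1A, at 17.2 and 5.79 FPKM, and to the actin-monomer binder profilin, PFN1, at 122 and 77.4 FPKM. ACTG1 itself had 395 FPKM with anti-IMP1 and 252 FPKM with IgG.

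MYC (ENSG00000136997, hg19 chr8:128747680-128753674) encodes a transcription factor of growth and proliferation. Its values were 9.72 FPKM with anti-IMP1 and 7.08 FPKM with IgG. The log2 ratio was 0.45 on the deposited scale and 2.32 after rescaling to the same sum. No setting used could bring it below 0, because each rescaling raises the anti-IMP1 values. Of the 1747 other genes of like level, 83.8% had a smaller ratio, and their median was -1.10. MYC ranked 2257th in the anti-IMP1 library and 4662nd in the IgG library. EIF1AD had the nearest pair of values, with 9.66 and 7.10 FPKM.

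MYC was a larger multiple of SRF and of CD44 with anti-IMP1 than with IgG. It was 3.08 times SRF with anti-IMP1 and 0.770 times SRF with IgG, a 4.00-fold difference between the quotients. Against CD44 it was 1.51 times with anti-IMP1 and 0.30 times with IgG, a 5.03-fold difference. These differences compare 2 libraries and hold under any scaling, but their spread is not known from 1 library each. Among all genes, 50.8% had a smaller ratio than MYC. Reference genes also lay far apart, with log2 ratios of -3.41 for B2M and 1.01 for GAPDH.

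Of 12 partners and antagonists of MYC in the MAX network, 11 were in the table. They gave 5 genes at least 2-fold higher and 4 at least 2-fold lower, beside 39.9% and 29.9% of all genes, and a median log2 ratio of 0.91. MAX, the obligate partner of MYC, had 23.2 FPKM with anti-IMP1 and 49.8 FPKM with IgG. MXD4, a MAX-binding repressor, had the largest ratio among those reaching 1 FPKM in each library, at 3.90 and 1.33 FPKM, and MGA had the smallest, at 1.12 and 4.80 FPKM. MYCBP and MXD1 were listed at 0 with IgG, and so nearly was MXD3, whose IgG value was under 0.001 FPKM. For the 5 genes reaching 1 FPKM in each library the median was -1.10.

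**Figure D2:**
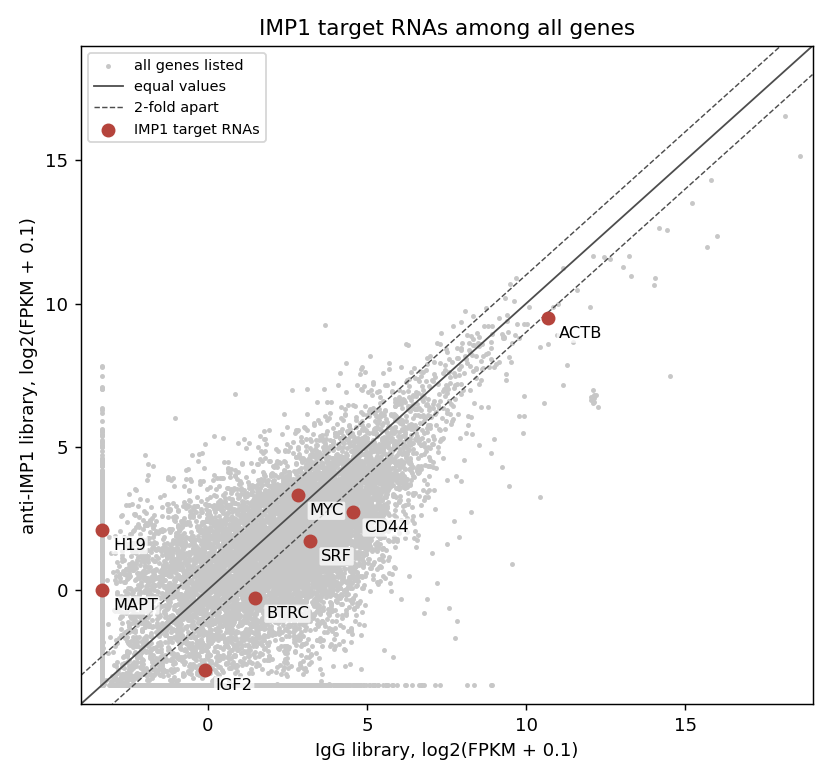
log2(FPKM + 0.1) in the anti-IMP1 library against the IgG library for all 18781 genes (grey) and the 8 IMP1 target RNAs (red, named); the solid line marks equal values and the dashed lines 2-fold. MYC lies just above the solid line, ACTB, CD44, SRF, BTRC and IGF2 lie below the lower dashed line, and H19 and MAPT lie in the column of genes listed at 0 with IgG.

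IGF2 and H19 are imprinted neighbours on chromosome 11, a growth factor mRNA and a long non-coding RNA that share enhancers and are expressed from opposite parental alleles. In hg19, H19 (ENSG00000130600) is listed at chr11:2016406-2022700 and IGF2 (ENSG00000167244) at chr11:2150342-2182571, a span shared with other genes. The 2 spans are 128 kb apart. H19 also carries the hairpin of miR-675 in its RNA, so the 2 mature miR-675 sequences are stretches of a precipitated member. They are shown as RefSeq gives them on GRCh38.p14 (minus strand, chr11:1996800-1996822 for the 5p arm and chr11:1996768-1996787 for the 3p arm), with the seed, bases 2 to 8, in capitals.
hsa-miR-675-5p: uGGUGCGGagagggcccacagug
hsa-miR-675-3p: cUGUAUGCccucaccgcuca
The arms have different seeds. Their own levels were not analysed here.

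H19 had 4.19 FPKM in the anti-IMP1 library and was listed at 0 in the IgG library, so no fold change can be given. With 0.1 added its log2 ratio was 5.42, a value set by the pseudocount. Among the 2739 other genes whose anti-IMP1 value was within 1.5-fold of that of H19, 19.5% were also listed at 0 with IgG. H19 ranked 4518th in the anti-IMP1 library.

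IGF2 went the other way. It had 0.0432 FPKM with anti-IMP1 and 0.836 FPKM with IgG. The log2 ratio of -2.71 stayed below 0 in all 8 settings, at -1.86 after rescaling to the same sum. Both values are low: the lowest 5% of values above 0 reached up to 0.0361 FPKM with anti-IMP1 and 0.0926 FPKM with IgG. Of the 1153 other genes within 1.5-fold of the IgG value of IGF2, 20.5% were listed at 0 with anti-IMP1. In the same 2 libraries the neighbours therefore differed in opposite directions, H19 detected only with anti-IMP1 and IGF2 mainly with IgG. The nearest pair of values to IGF2 belonged to RP11-448A19.1, at 0.0450 and 0.825 FPKM.

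Within the IGF axis, 9 of 12 listed genes were in the table, with a median log2 ratio of 1.60. Of these, 7 were at least 2-fold higher and 2 at least 2-fold lower, beside 39.9% and 29.9% of all genes. IGFBP2 and IGFBP5, secreted proteins that bind IGF2, had the largest ratios among genes reaching 1 FPKM in each library, with 34.6 and 2.32 FPKM for IGFBP2 and 144 and 17.0 FPKM for IGFBP5 (anti-IMP1 and IgG). The receptor mRNA IGF1R had 15.2 and 4.96 FPKM. IGF2R, the receptor that clears IGF2, had the smallest ratio, with 2.17 FPKM with anti-IMP1 and 10.9 FPKM with IgG. The IgG library listed IGFBP6, INSR and IRS2 at 0.

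CD44 (ENSG00000026508, hg19 chr11:35160417-35253949) encodes the hyaluronan receptor, an adhesion protein of motile and mesenchymal-like cells. It had 6.44 FPKM with anti-IMP1 and 23.6 FPKM with IgG, and ranked 3213th and 1730th. The log2 ratio was -1.86 on the deposited scale, with 29.1% of 1394 genes of like level having a smaller one. It was 0.00136 after rescaling to the same sum, -1.07 after scaling to the median gene and -1.29 without the 50 highest genes. ELL3 had the nearest pair of values, with 6.62 and 23.2 FPKM.

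Markers of mesenchymal cells, which also express CD44, had a median log2 ratio of -5.83 on the deposited scale and -5.27 after rescaling to the same sum. All 10 were listed, and 10 of 10 were at least 2-fold lower with anti-IMP1, beside 29.9% of all genes. They summed to 2.61 FPKM with anti-IMP1 and 229 FPKM with IgG. DCN, SPARC, PDGFRB, LUM, COL1A2 and ZEB2 were at 0 with anti-IMP1. The 12 markers of luminal breast epithelium were all listed and summed to 1839 FPKM with anti-IMP1 and 778 FPKM with IgG. Of these, 7 were at least 2-fold higher and 0 at least 2-fold lower, beside 39.9% and 29.9% of all genes. Of 8 blood markers 3 were listed, summing to 6.53 and 322 FPKM, mostly the 305 FPKM of CD74 with IgG, where HLA-DRA had 17.4 FPKM, and 3 of 4 basal markers were listed, at no more than 0.294 FPKM. CD14, the other listed blood marker, had 0.103 FPKM with anti-IMP1 and was listed at 0 with IgG. The anti-IMP1 library thus held luminal markers and few others, while the IgG library held luminal, mesenchymal and some blood markers. Mesenchymal and blood markers are not those of a luminal line, and where their RNA came from was not tested. Whether RNA of other cells forms a part of the values of CD44 and IGF2 was not tested either.

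Of 14 ligands and partners of CD44, 10 were listed. Of these, 3 were at least 2-fold higher and 6 at least 2-fold lower, beside 39.9% and 29.9% of all genes. The median log2 ratio was -1.39 on the deposited scale and 0.48 after rescaling to the same sum. HMMR, another hyaluronan receptor, had the smallest ratio among those reaching 1 FPKM in each library, with 2.43 FPKM with anti-IMP1 and 35.6 FPKM with IgG. The splicing regulators of CD44 differed in direction on the deposited scale, with 8.62 and 25.0 FPKM for ESRP1 and 4.52 and 1.25 FPKM for ESRP2. Ezrin, EZR, which links CD44 to actin, had 7.40 and 4.04 FPKM, and its relative moesin, MSN, was listed at 0 with anti-IMP1 and at 1.36 FPKM with IgG.

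BTRC (ENSG00000166167, hg19 chr10:103113820-103317078) encodes beta-TrCP, the substrate receptor of an SCF ubiquitin ligase that marks beta-catenin and the NF-kB inhibitor NFKBIA for degradation. It had 0.712 FPKM with anti-IMP1 and 2.70 FPKM with IgG. Its log2 ratio was -1.78 on the deposited scale and -0.04 after rescaling to the same sum. After scaling to the median gene it was -1.07, and without the 50 highest genes -1.27. Of 1665 genes of like level, 28.7% had a smaller ratio. GPR137C had the nearest pair of values, with 0.733 and 2.70 FPKM.

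All 10 genes listed around the ligase were in the table. They include FBXW7 and SKP2, which belong to other SCF ligases. Of the 10, 4 were at least 2-fold higher and 2 at least 2-fold lower, beside 39.9% and 29.9% of all genes. Their median log2 ratio was 0.33. The 4 higher were FBXW7, CDC25A, SKP2 and WEE1. FBXW7 and CDC25A were listed at 0 with IgG, and the IgG value of WEE1 was under 0.001 FPKM. For the 6 genes reaching 1 FPKM in each library the median was -0.08, and 0 were at least 2-fold higher. The 2 lower genes were FBXW11, the close paralog of BTRC, at 4.71 FPKM with anti-IMP1 and 44.4 FPKM with IgG, and NFKBIA at 23.9 and 97.8 FPKM. The shared ligase subunits were within 2-fold, with 2.21 and 2.27 FPKM for CUL1, 68.8 and 59.1 FPKM for SKP1 and 6.91 and 5.09 FPKM for RBX1. CTNNB1, beta-catenin, had 7.85 and 8.62 FPKM. Both beta-TrCP paralogs thus had smaller ratios than CUL1, SKP1 and RBX1, the subunits they assemble with.

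SRF (ENSG00000112658, hg19 chr6:43139037-43149243) encodes the serum response factor, which drives actin and immediate early genes through a DNA element called the CArG box. It had 3.15 FPKM with anti-IMP1 and 9.20 FPKM with IgG. The log2 ratio was -1.52 on the deposited scale and 0.33 after rescaling to the same sum. After scaling to the median gene it was -0.74, and without the 50 highest genes -0.96. Among 1954 genes of like level the median was -1.13, and 40.6% had a smaller ratio. AP1AR had the nearest pair of values, with 3.13 and 9.15 FPKM.

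The genes listed around SRF were chosen as its cofactors and targets, and their own promoter windows are not shown. The CArG box is shown for SRF, which controls itself, and for ACTG1, which is in the actin list. The sequences are from the RefSeq promoter windows of GRCh38.p14 (250 bases before to 50 after a start). Capitals mark the CArG box, and the search for it covered both strands. The boxes lie at chr6:43171229-43171258 and chr6:43171249-43171278 (plus strand) and at chr17:81512874-81512903 (minus strand), each with 10 flanking bases on either side.
SRF, first box: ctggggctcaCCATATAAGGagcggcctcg
SRF, second box: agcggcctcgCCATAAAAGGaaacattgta
ACTG1: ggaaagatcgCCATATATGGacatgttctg
The pattern was present in 1.29% of the 35116 windows. Windows were found for 3 of the 8 RNAs (H19, CD44 and SRF), and of these SRF held it, in 1 of its 2 windows. The libraries measure RNA on beads and say nothing of these promoters.

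Of 17 cofactors and targets of SRF, 16 were in the table, with a median log2 ratio of 1.13. With anti-IMP1, 8 were at least 2-fold higher and 6 at least 2-fold lower, beside 39.9% and 29.9% of all genes. The 8 higher genes were all listed at 0 with IgG, among them MYL9, myosin light chain, at 7.31 FPKM with anti-IMP1 and the immediate early gene JUNB at 4.62 FPKM. For the 7 genes reaching 1 FPKM in each library the median was -1.33, and 5 were at least 2-fold lower. FHL2, a LIM protein, had 11.4 FPKM with anti-IMP1 and 48.8 FPKM with IgG, and the cofactor MKL2 had 2.23 and 6.74 FPKM. VCL, vinculin, had 4.86 and 2.64 FPKM, and the cofactor MKL1 had 1.21 and 1.75 FPKM.

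CD44, BTRC and SRF held nearly the same proportions in both precipitates. This restates that their log2 ratios were close, at -1.86, -1.78 and -1.52. Of the genes of like level, 29.1%, 28.7% and 40.6%, respectively, had a smaller ratio. How often other genes keep their proportions as closely was not counted. CD44 was 9.05 times BTRC with anti-IMP1 and 8.76 times BTRC with IgG. It was 2.04 times SRF with anti-IMP1 and 2.57 times SRF with IgG, and SRF was 4.43 and 3.41 times BTRC. The quotients of these 3 mRNAs thus differed between the libraries by at most 1.30-fold, against 4.00-fold for MYC over SRF and 3.58-fold for ACTB over ACTG1. ACTB over CD44 lay between, at 111 with anti-IMP1 and 69.2 with IgG, a 1.60-fold difference.

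**Figure D3:**
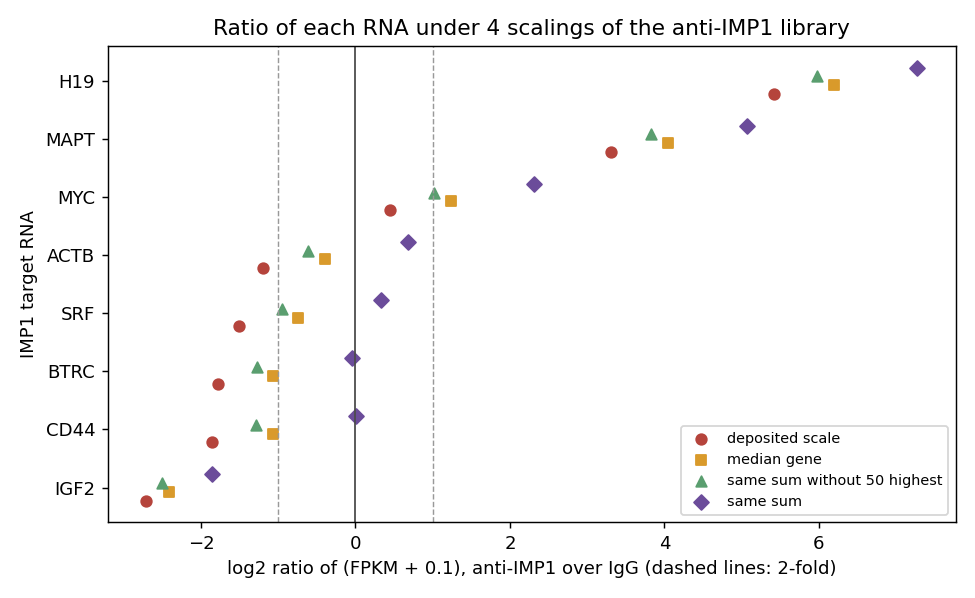
log2 ratio (anti-IMP1 over IgG, FPKM + 0.1) of each IMP1 target RNA on the deposited scale and after 3 rescalings of the anti-IMP1 library; dashed lines mark 2-fold. IGF2 stays below 0 throughout, while ACTB, SRF and CD44 cross 0 after rescaling to the same sum. MYC, MAPT and H19 are above 0 on the deposited scale and could not fall below it, because each rescaling raises the anti-IMP1 values.

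MAPT (ENSG00000186868, hg19 chr17:43921017-44105700) encodes tau, a microtubule-binding protein of neurons that luminal breast cancers also express. It had 0.892 FPKM with anti-IMP1 and was listed at 0 with IgG, so that its log2 ratio of 3.31 is set by the pseudocount. Of the 2646 other genes within 1.5-fold of its anti-IMP1 value, 45.3% were likewise listed at 0 with IgG. At this level an IgG value of 0 was therefore common.

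Of 13 genes for other microtubule-associated proteins and tau kinases, 12 were listed. Of these, 2 were at least 2-fold higher and 7 at least 2-fold lower, beside 39.9% and 29.9% of all genes. The median log2 ratio was -1.08 on the deposited scale and 0.72 after rescaling to the same sum. MAP4, the ubiquitous relative of tau, had 1.29 FPKM with anti-IMP1 and 7.64 FPKM with IgG, and the kinase CDK5 had 1.83 and 8.94 FPKM. GSK3B, another tau kinase, had 10.5 and 5.87 FPKM, and STMN1, which binds tubulin dimers, had 41.1 and 63.2 FPKM. MAP1S and MARK4, the 2 higher genes, were listed at 0 with IgG.

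Of other mRNAs reported to bind IMP1, 5 are given here. MKI67, a proliferation marker, had 1.24 FPKM with anti-IMP1 and 3.97 FPKM with IgG, and the deacetylase mRNA SIRT1 had 2.39 and 8.26 FPKM, so that both were at least 2-fold lower on the deposited scale. CTNNB1 was within 2-fold, as above. E2F1, a cell cycle transcription factor, had 3.73 FPKM with anti-IMP1 and 0.0878 FPKM with IgG and was at least 2-fold higher. Its IgG value lay within the lowest 5% of IgG values above 0, which reached up to 0.0926 FPKM. GLI1, a Hedgehog pathway factor, had 0.0479 FPKM with anti-IMP1 and was listed at 0 with IgG. Of the IMP1 paralogs IGF2BP2 was listed, with 0.393 FPKM with anti-IMP1 and 0.232 FPKM with IgG.

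The 14 reference genes gave 3 at least 2-fold higher and 4 at least 2-fold lower, beside 39.9% and 29.9% of all genes. Their median log2 ratio was 0.28. GAPDH had 236 FPKM with anti-IMP1 and 117 FPKM with IgG. Its log2 ratio of 1.01 was larger than those of the 6 classical targets above 0 in both libraries. TFRC, the transferrin receptor, had 149 and 56.5 FPKM, B2M, the light chain of MHC class I, had 232 and 2474 FPKM, and TBP, the TATA-binding protein, had 2.02 and 12.0 FPKM. The reference genes thus spanned log2 ratios from -3.41 to 6.62, a range that holds all 8 targets.

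**Figure D4:**
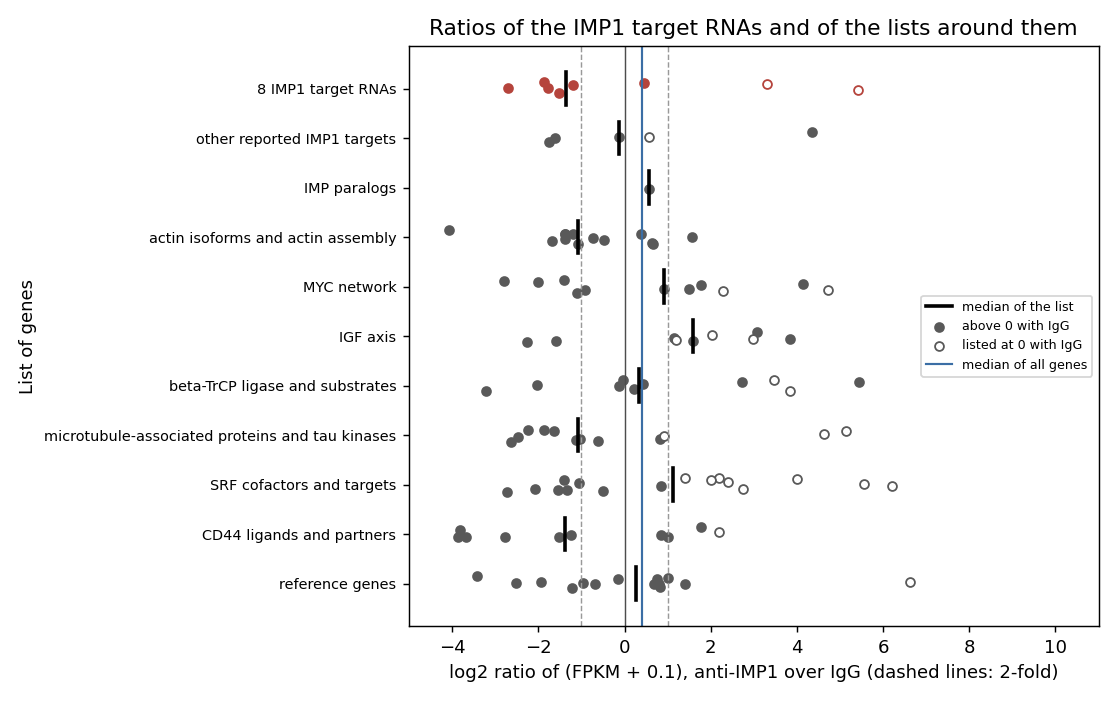
log2 ratio (anti-IMP1 over IgG, FPKM + 0.1, deposited scale) of each gene in the 8 IMP1 target RNAs (red) and in the 10 lists around them; open points are listed at 0 with IgG, black bars are list medians and the blue line is the median of all genes, 0.40; the row of other reported IMP1 targets holds the 5 genes given here. The targets spread from -2.71 for IGF2 to 5.42 for H19, and every list with more than 1 gene has genes on both sides of 0.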

How the data were processed

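RNA from an anti-IMP1 and an IgG precipitate of T47D cells was sequenced, 1 library each. The authors deposited FPKM per gene with Ensembl identifiers; the submitters' processing notes name hg19, and the aligner, counter and annotation are not given in the sources used here. The authors' fold change, p-value and q-value columns and the lists drawn from them were not used. Locus starts count from 0, so 1 was added. A locus can be shared by several genes, as those of ACTB, IGF2, BTRC and MAPT are, so it can be wider than a gene.

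The log2 ratio of FPKM + 0.1 was computed for 18781 genes, with 2-fold as the limit and no test. FPKM carry no depth, so counting intervals could not be given. Members and lists were chosen with earlier results of these data known. Named genes were the members, the gene nearest to each by values, some of the neighbouring genes, and GAPDH. Also named were the 2 largest and 2 smallest ratios of each list where a gene reached 1 FPKM in each library. The other genes named, among them ACTG1, MAX, E2F1, MYL9 and JUNB, were chosen after their values were seen. Alternatives were pseudocounts, scalings, filters and a 4-fold threshold. Some genes of the list of other IMP1 targets are not reported here and were left out of its values. The calls were run on simulated data of equal scale, with large changes set into higher genes only. Recovery was fixed by that design, so it does not bear on low values or unequal sums. Python 3.11.15, numpy 2.4.6, pandas 2.3.3 and matplotlib 3.10.9 were used.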

Additional observations from a re-analysis of the deposited data

How the results depend on the processing

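No paired analysis was possible because each antibody has 1 library, which also means that none can be left out. Of the IMP1 target RNAs, the 2 higher ones became 1 when the pseudocount was 1 and 0 among genes above 0 in both libraries, since H19 and MAPT are listed at 0 with IgG. The 5 lower became 3 after scaling to the median gene and 3 after scaling to the sum without the 50 highest genes, 1 after scaling to the same sum and 1 at 4-fold, while the share of all genes that were lower went from 29.9% to 21.3%, 23.5%, 13.0% and 17.3%, respectively. With a pseudocount of 1, 17.4% of all genes were higher, and 17.5% of those above 0 in both libraries. Scaling to the same sum reversed ACTB to 0.68, CD44 to 0.00136 and SRF to 0.33, and the medians of actin genes to 0.79, microtubule-associated proteins and tau kinases to 0.72 and CD44 partners to 0.48. Scaling to the median gene, or to the sum without the 50 highest genes, left all of these below 0. The median of the SRF list, 1.13, reversed to -0.78 when 0.5 FPKM in either library was required and to -1.37 among genes above 0 in both. The log2 ratio of H19 ran from 2.37 with a pseudocount of 1 to 8.71 with 0.01, that of MAPT from 0.92 to 6.49, and that of IGF2 from -0.82 to -3.99. Each change follows from the setting's own scale, filter or threshold.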

Other observations

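Genes whose locus overlaps that of a target, or lies next to it, gave ratios on either side of the target's. Distances are between the deposited loci, which several genes can share, so the genes themselves can lie further apart. In the locus of BTRC (hg19, chr10:103113820-103317078) the table also lists RNU2-59P, a U2 small nuclear RNA pseudogene, at 0 with anti-IMP1 and at 473 FPKM with IgG, while BTRC had 0.712 and 2.70 FPKM. KAZALD1, the nearest listed gene before BTRC, went the other way, with 14.8 FPKM with anti-IMP1 and 1.11 FPKM with IgG. POLL and DPCD, after BTRC, had 4.25 and 6.01 FPKM with anti-IMP1 and were listed at 0 with IgG. PVT1, the long non-coding RNA 53.1 kb after MYC, had 2.70 FPKM with anti-IMP1 and 11.4 FPKM with IgG. Its log2 ratio was -2.03, against 0.45 for MYC. MRPL23, a mitochondrial ribosomal protein gene 5.26 kb before H19, had 10.6 and 6.69 FPKM, and was thus above 0 in both libraries. PDHX, 118 kb before CD44, had 8.87 FPKM with anti-IMP1 and 25.8 FPKM with IgG, a log2 value of -1.53 against -1.86 for CD44. APIP, which shares the locus of PDHX, went the other way, with 3.85 and 1.69 FPKM. SLC1A2, 18.8 kb after CD44, had 0.406 FPKM with anti-IMP1 and was listed at 0 with IgG. FSCN1, which encodes the actin-bundling protein fascin, is listed 29.0 kb after the shared locus of ACTB. FSCN1 had 0.581 FPKM with anti-IMP1 and 3.58 FPKM with IgG, and was lower on the deposited scale, as ACTB was. On chromosome 17, KANSL1, 1.58 kb after MAPT, had 7.94 and 31.1 FPKM, KANSL1-AS1 had 1.56 FPKM with anti-IMP1 and was listed at 0 with IgG, as MAPT was, and the antisense gene MAPT-AS1 was listed at 0 with anti-IMP1 and at 0.127 FPKM with IgG. Whether the counting used strand is not given in the sources used here, so reads of a gene and of an antisense or overlapping partner cannot be told apart.

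In the IGF2 locus, IGF2-AS was at 0.0559 FPKM and AC132217.4 at 0.338 FPKM with anti-IMP1, both listed at 0 with IgG. INS-IGF2 had 0 FPKM with anti-IMP1 and a value under 0.001 FPKM with IgG. Values above 0 but under 0.001 FPKM occurred for 388 genes in the anti-IMP1 library and 265 in the IgG library.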
